A study of Mus musculus with 12 samples.

Results

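Matrix metalloproteinases (MMPs) and their tissue inhibitors (TIMPs) were followed as a family of 9 genes, *Mmp2*, *Mmp3*, *Mmp9*, *Mmp13*, *Mmp14*, *Mmp15*, *Timp1*, *Timp2* and *Timp3*, chosen by name from the 35521 genes listed in the data. These genes and the other gene lists below were chosen with earlier results of these data known. RNA was sequenced in 12 libraries of 4T1, a mouse mammary carcinoma cell line that arose in a BALB/c mouse. Tu-Gr1+CD11b+-primed 4T1 (n = 4) had shared a Transwell with Gr1+ myeloid cells from the tumors of 4T1-bearing BALB/c mice, Spl-Gr1+CD11b+-primed 4T1 (n = 4) with Gr1+ cells from the spleens of such mice, and parental 4T1 (n = 4) were the untreated cells. All 12 libraries are of 1 cell line with no genetic change in the labels. The labels give 48 h of co-culture across pores of 0.4 µm and isolation of the Gr1+ cells by magnetic columns at day 21 after tumor cell injection (the study's methods give a later day), and do not say whether the parental wells held an insert. Nothing in the labels says that the 4 libraries of a group came from separate cultures or mice, so each p measures the spread between these libraries, which may be technical.

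MMPs are zinc endopeptidases, secreted or held on the cell surface, that are made as inactive proenzymes and cut collagens, laminins, proteoglycans and other proteins of the extracellular matrix. TIMPs are small secreted proteins that bind the active site of MMPs and block it. In breast cancer these enzymes are known for matrix breakdown at the invading edge of the tumor and for release of growth factors held in the matrix, and they are made by tumor cells, fibroblasts and myeloid cells alike.

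Each library held 24566183 to 31637755 reads assigned to transcripts. The replicates of a group differed from each other by more than sampling noise, and Spl-Gr1+CD11b+-primed replicate 3 stood apart from its group. For Spl-Gr1+CD11b+-primed replicate 3 the chi-square per degree of freedom against the other libraries of its group was 31.8 to 39.6, where the other pairs of that group gave 3.50 to 7.63. Parental replicate 4 gave 58.1 and 64.6 against parental replicates 1 and 2, whose own pair gave 6.01. Parental replicate 3 was nearer to replicate 4 (17.8) than to replicates 1 and 2 (22.2 and 27.4). Results that rest on Spl-Gr1+CD11b+-primed replicate 3 or parental replicate 4 are given with and without them. Reads on retained-intron or nonsense-mediated decay transcripts made up 5.73% ± 0.0895 (SD, n = 4) for Tu-Gr1+CD11b+-primed, 5.74% ± 0.312 in Spl-Gr1+CD11b+-primed and 4.12% ± 0.173 in parental 4T1. With only protein-coding transcripts counted, the calls of 2 of the 9 genes changed, both for Spl-Gr1+CD11b+-primed against parental, where *Mmp14* passed (0.16 on the log2 scale, edgeR adjusted p = 0.026) and *Mmp3* did not (−0.097, adjusted p = 0.15).

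Of the 9 genes, 7 had enough reads to be tested among 12555 genes. *Mmp2* (0 to 3 reads per library) and *Timp3* (0 to 2 reads) were at the floor in every library. There a count of 0 allows up to 3 reads, for counting error only. In parental replicate 3, the library of the smallest scaled size, 3 reads are 0.126 CPM (reads of a gene scaled to the size of its library). Cells primed by tumor-derived Gr1+CD11b+ cells held more *Mmp13*, *Mmp9*, *Mmp14*, *Mmp3* and *Timp2* RNA and less *Mmp15* RNA than parental 4T1. Cells primed by spleen-derived Gr1+CD11b+ cells held more *Mmp13* RNA and less *Timp1* and *Mmp3* RNA than parental 4T1. *Mmp13* moved most, to 4.98-fold of parental in Tu-Gr1+CD11b+-primed and 1.85-fold in Spl-Gr1+CD11b+-primed 4T1. The other calls were changes of at most 1.63-fold, and those of *Mmp3* against parental and of *Timp2* were lost when single libraries were left out.

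The proximal promoters of *Mmp13* and *Mmp3* are printed because these 2 genes differed between the 2 kinds of priming, and that of *Timp1*, an inhibitor that fell in 1 of them, for comparison. They are the 250 bases before the transcription start in the RefSeq table of promoters (build GRCm38.p6, 5′ to 3′, plus strand), which held 7 of the 9 genes. *Mmp13* lies at chr9:7272264-7272513, *Mmp3* at chr9:7445572-7445821 and *Timp1* at chrX:20869916-20870165. Capitals mark the AP-1 letters TGACTCA or their reverse complement TGAGTCA, the RUNX letters AACCACA and the TATA letters TATAAA.

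Mmp13: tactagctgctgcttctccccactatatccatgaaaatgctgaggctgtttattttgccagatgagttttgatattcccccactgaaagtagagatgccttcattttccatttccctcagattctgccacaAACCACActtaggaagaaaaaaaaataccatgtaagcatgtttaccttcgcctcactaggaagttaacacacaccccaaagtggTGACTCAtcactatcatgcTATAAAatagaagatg

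Mmp3: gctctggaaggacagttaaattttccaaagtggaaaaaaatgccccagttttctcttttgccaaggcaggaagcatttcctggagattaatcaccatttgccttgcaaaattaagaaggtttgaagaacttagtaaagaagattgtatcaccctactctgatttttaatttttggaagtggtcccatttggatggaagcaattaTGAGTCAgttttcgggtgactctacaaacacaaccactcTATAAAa

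Timp1: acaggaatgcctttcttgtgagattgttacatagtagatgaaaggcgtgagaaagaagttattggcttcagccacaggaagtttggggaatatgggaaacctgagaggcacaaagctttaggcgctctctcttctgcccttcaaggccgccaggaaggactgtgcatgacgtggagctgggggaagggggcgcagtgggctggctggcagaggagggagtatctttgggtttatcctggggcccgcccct

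The AP-1 letters stood 35 to 29 bases before the start of *Mmp13* and 46 to 40 bases before that of *Mmp3*, and in none of the other 5 promoters. Searched on both strands in 300 bases (250 before the start and 50 after it), they were present in 5.20% of all 32851 promoters. RUNX letters (5.27% of promoters) stood in *Mmp13* alone of the 7, 119 to 113 bases before its start, and TATA letters (13.6%) in *Mmp13* and *Mmp3*. The ETS letters AGGAAG occurred in *Mmp3*, *Mmp13*, *Mmp14*, *Timp1* and *Timp3*, as in 35.4% of promoters, and the STAT letters TTCNNNGAA in none of the 7, against 8.30% of promoters. No motif match overlapped another. A match is a run of letters and not a measured binding site.

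*Mmp13* encodes a collagenase that cuts fibrillar collagens (ENSMUSG00000050578, GRCm38 chromosome 9, 7272514 to 7283331, plus strand). In Tu-Gr1+CD11b+-primed replicates 1 to 4 its level was 30.0, 35.3, 33.7 and 29.1 CPM. In Spl-Gr1+CD11b+-primed replicates it was 12.5, 12.5, 9.84 and 12.7 CPM. In parental replicates it was 7.58, 9.14, 5.62 and 3.28 CPM. The 3 groups did not overlap, the lowest Spl-Gr1+CD11b+-primed library lying just above the highest parental one. The edgeR fit gave log2 differences of 2.32 ± 0.20 (SE, adjusted p = 9.4e-07) for Tu-Gr1+CD11b+-primed over parental and 0.89 ± 0.21 (adjusted p = 0.0031) for Spl-Gr1+CD11b+-primed over parental. Tu-Gr1+CD11b+-primed exceeded Spl-Gr1+CD11b+-primed by 1.43 ± 0.19, or 2.69-fold (edgeR, adjusted p = 0.00027). All 3 differences held in each of 21 alternative fits, with ranges of 2.10 to 2.53, 0.67 to 1.10 and 1.37 to 1.47. Parental replicate 4 held the lowest level of all. Without it the log2 differences over parental were 2.10 and 0.67, and without Spl-Gr1+CD11b+-primed replicate 3 that of Spl-Gr1+CD11b+-primed was 0.95 and that between the primed groups 1.37.

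*Mmp3* encodes a stromelysin that cuts proteoglycans and laminin and activates other pro-MMPs (ENSMUSG00000043613, chromosome 9, 7445822 to 7455975, plus strand). It was at 1392, 1388, 1315 and 1351 CPM in the Tu-Gr1+CD11b+-primed libraries. Spl-Gr1+CD11b+-primed replicates held 1164, 1062, 1192 and 1050 CPM. Parental replicates held 1239, 1204, 1280 and 1197 CPM. The Tu-Gr1+CD11b+-primed libraries were all above, and the Spl-Gr1+CD11b+-primed libraries all below, the parental range, so that the 2 primed groups lay on opposite sides of parental 4T1. The difference between the primed groups was 0.29 ± 0.05 on the log2 scale, or 1.22-fold (edgeR, adjusted p = 0.0048), and held in all 21 alternatives (0.26 to 0.34). The differences from parental were smaller, at 0.15 ± 0.05 (adjusted p = 0.032) for Tu-Gr1+CD11b+-primed and −0.14 ± 0.05 (adjusted p = 0.048) for Spl-Gr1+CD11b+-primed 4T1. They passed the threshold in 13 and 9 of the 21 alternatives. The first was lost without Tu-Gr1+CD11b+-primed replicate 1, 2 or 4 or parental replicate 1, 2 or 4 (adjusted p up to 0.081), and the second without any 1 of the 4 Tu-Gr1+CD11b+-primed libraries, Spl-Gr1+CD11b+-primed replicate 2 or 4, or parental replicate 1 or 3 (adjusted p up to 0.14). Of the 31-base words in the *Mmp3* transcript, 14.6% also occur in other genes, most of them in *Mmp10*, so that some reads of this pair could be assigned to either.

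The gelatinases digest denatured collagen and the type IV collagen of basement membranes. *Mmp9* (ENSMUSG00000017737, chromosome 2, 164940780 to 164955850, plus strand) was at 156, 160, 144 and 182 CPM in the Tu-Gr1+CD11b+-primed libraries. In Spl-Gr1+CD11b+-primed replicates it was at 130, 145, 127 and 147 CPM, and in parental replicates at 125, 125, 126 and 121 CPM. Both primed groups lay wholly above the narrow parental range and overlapped each other. Tu-Gr1+CD11b+-primed exceeded parental by 0.37 ± 0.07 (SE, log2), or 1.29-fold (edgeR, adjusted p = 0.00053), in every alternative. The difference of 0.14 ± 0.07 between Spl-Gr1+CD11b+-primed and parental did not pass (adjusted p = 0.12, 95% interval 0.0020 to 0.28), nor did that of 0.23 ± 0.07 between the primed groups (adjusted p = 0.066, 0.09 to 0.37). DESeq2 gave the latter as 0.24 with an adjusted p of 0.024, and edgeR as 0.28 with 0.045 without Tu-Gr1+CD11b+-primed replicate 3. The second gelatinase, *Mmp2* (ENSMUSG00000031740, chromosome 8, 92827291 to 92853420), stayed at the floor as given above.

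**Figure D1:**
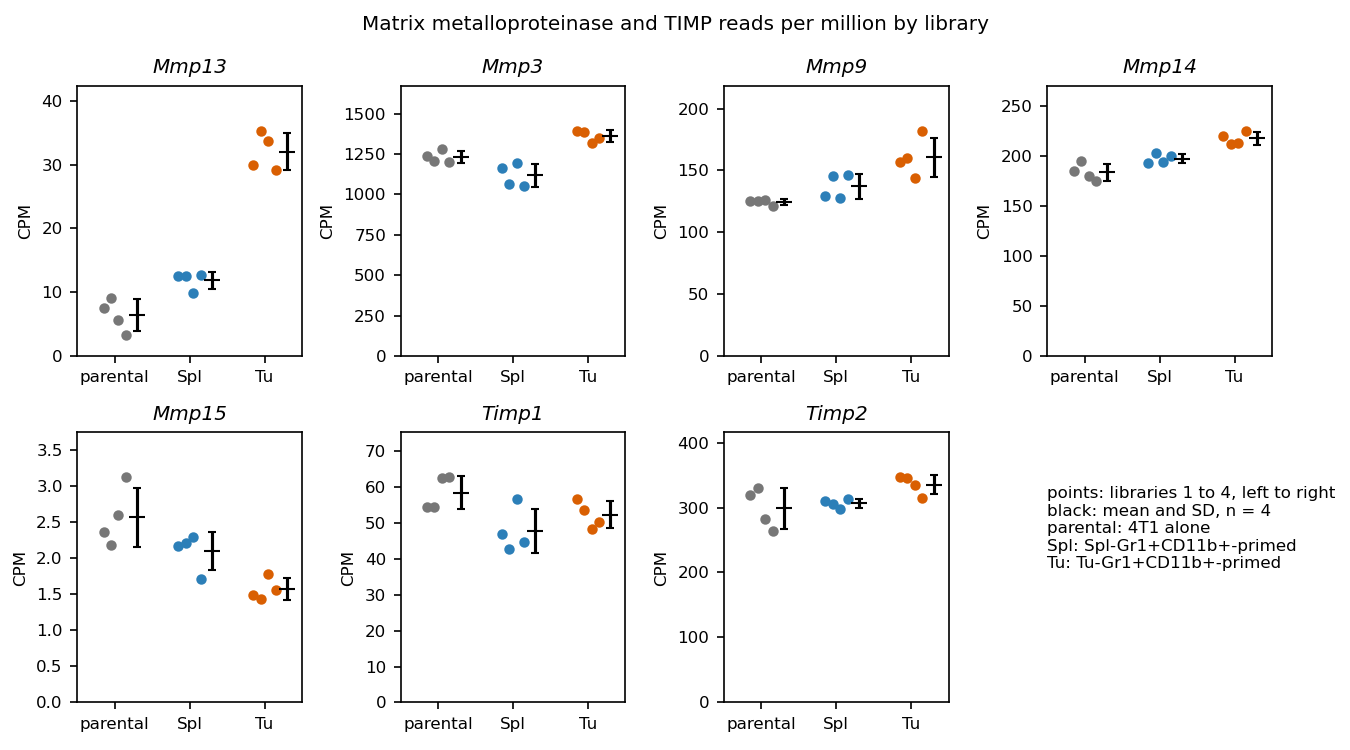
CPM (linear axis from 0) of the 7 tested genes in each of the 12 libraries (points, replicates 1 to 4 from left to right) with the mean and SD of each group (n = 4). *Mmp13* is the gene whose 3 groups are furthest apart (means 32.0, 11.9 and 6.41 CPM), while *Timp1* and *Timp2* overlap between primed and parental libraries.

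Membrane-type MMPs are anchored in the plasma membrane, and *Mmp14* encodes the main activator of pro-MMP2. *Mmp14* (ENSMUSG00000000957, chromosome 14, 54431612 to 54445364, plus strand) was at 220, 212, 213 and 225 CPM in Tu-Gr1+CD11b+-primed 4T1, at 193, 203, 193 and 200 CPM in Spl-Gr1+CD11b+-primed, and 184, 195, 180 and 174 CPM in parental 4T1. The Tu-Gr1+CD11b+-primed libraries were above all others, and the other 2 groups overlapped. The log2 difference from parental was 0.25 ± 0.05 for Tu-Gr1+CD11b+-primed (1.19-fold, edgeR adjusted p = 0.00065, called in every alternative). It was 0.10 ± 0.05 for Spl-Gr1+CD11b+-primed 4T1 (adjusted p = 0.088, 95% interval 0.01 to 0.20), which passed with protein-coding transcripts alone (0.16, adjusted p = 0.026) and without parental replicate 2 (0.13, adjusted p = 0.035). Between the primed groups it was 0.14 ± 0.05 (edgeR, adjusted p = 0.096, 0.05 to 0.23), a difference that DESeq2 called (0.15, adjusted p = 0.0099), also with transcript length offsets (0.19, adjusted p = 0.0065).

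*Mmp15*, a second membrane-type enzyme (ENSMUSG00000031790, chromosome 8, 95352268 to 95375080, plus strand), was rare, with 37 to 78 reads per library. It was at 1.49, 1.44, 1.78 and 1.56 CPM in Tu-Gr1+CD11b+-primed 4T1, at 2.17, 2.22, 2.29 and 1.70 CPM in Spl-Gr1+CD11b+-primed, and 2.36, 2.18, 2.60 and 3.12 CPM in parental 4T1. Every Tu-Gr1+CD11b+-primed library was below every parental one, which made *Mmp15* the only one of the 7 genes called lower after tumor-derived priming by edgeR. The difference was −0.71 ± 0.17 (SE, log2), 1.63-fold lower (adjusted p = 0.0025), and was called in all 21 alternatives (−0.78 to −0.56). Spl-Gr1+CD11b+-primed lay between the other groups and overlapped both, at −0.29 ± 0.16 from parental (edgeR, adjusted p = 0.16, 95% interval −0.61 to 0.03). Tu-Gr1+CD11b+-primed minus Spl-Gr1+CD11b+-primed was −0.41 ± 0.17 (adjusted p = 0.16, −0.75 to −0.08).

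*Timp1* (ENSMUSG00000001131, chromosome X, 20870166 to 20874735, plus strand) encodes an inducible inhibitor that binds pro-MMP9. It was at 56.8, 53.7, 48.4 and 50.2 CPM in Tu-Gr1+CD11b+-primed 4T1, at 46.9, 42.6, 56.7 and 44.8 CPM in Spl-Gr1+CD11b+-primed, and 54.4, 54.5, 62.4 and 62.7 CPM in parental 4T1. Apart from replicate 3, the Spl-Gr1+CD11b+-primed libraries were below all parental ones. *Timp1* was lower in Spl-Gr1+CD11b+-primed than in parental 4T1 by −0.29 ± 0.09 (SE, log2), or 1.22-fold (edgeR, adjusted p = 0.013), in every alternative, and by −0.40 (adjusted p = 0.00053) without that replicate. In Tu-Gr1+CD11b+-primed 4T1 it stood at −0.16 ± 0.09 from parental (edgeR, adjusted p = 0.12, 95% interval −0.33 to 0.01), called in 1 of 21 alternatives, without Spl-Gr1+CD11b+-primed replicate 3 (adjusted p = 0.048). The primed groups differed by 0.13 ± 0.09 (adjusted p = 0.41, −0.04 to 0.30). *Syn1* overlaps *Timp1* on the opposite strand and held 0 to 11 reads per library.

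*Timp2* (ENSMUSG00000017466, chromosome 11, 118301069 to 118355740, minus strand) encodes the inhibitor that also links MMP14 to pro-MMP2 at the cell surface. Its level was 346, 346, 334 and 315 CPM in Tu-Gr1+CD11b+-primed 4T1, at 310, 306, 298 and 314 CPM in Spl-Gr1+CD11b+-primed, and 319, 331, 282 and 264 CPM in parental 4T1. The parental libraries spread widely, from below both primed groups into the range of Tu-Gr1+CD11b+-primed, of which 3 of 4 libraries lay above every parental one, and Tu-Gr1+CD11b+-primed lay just above Spl-Gr1+CD11b+-primed. Tu-Gr1+CD11b+-primed minus parental was 0.17 ± 0.07 (SE, log2, edgeR adjusted p = 0.045), called in 9 of 21 alternatives. It was lost when any of 8 single libraries was left out (0.11, adjusted p = 0.13, without parental replicate 4) and was −0.01 (adjusted p = 0.87) in DESeq2 with transcript length offsets. Spl-Gr1+CD11b+-primed minus parental was 0.04 ± 0.07 (edgeR, adjusted p = 0.66, 95% interval −0.09 to 0.17), and with those offsets −0.17 (adjusted p = 0.015). The primed groups differed by 0.13 ± 0.07 (adjusted p = 0.28, −0.0028 to 0.26), called in none of the alternatives.

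The length offsets take into account that *Timp2* RNA was divided between 2 annotated protein-coding transcripts, Timp2-201 of 3709 bases and Timp2-202 of 718 bases. The short transcript held 53.1% ± 4.80 (SD, n = 4) of the TPM of the gene in parental 4T1, 45.8% ± 3.15 in Tu-Gr1+CD11b+-primed and 44.4% ± 2.16 in Spl-Gr1+CD11b+-primed 4T1. Parental replicate 4 had the largest short share, 59.6%, and parental replicate 1 the smallest of its group, 48.7%, which was below the 49.4% of Tu-Gr1+CD11b+-primed replicate 2. Per molecule, a longer transcript gives more reads, and the count of the gene depends on this division. These shares are Salmon estimates, were chosen for display after their values were seen and were not tested. *Cep295nl*, which lies within *Timp2* on the same strand, held 51 to 93 reads per library.

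**Figure D2:**
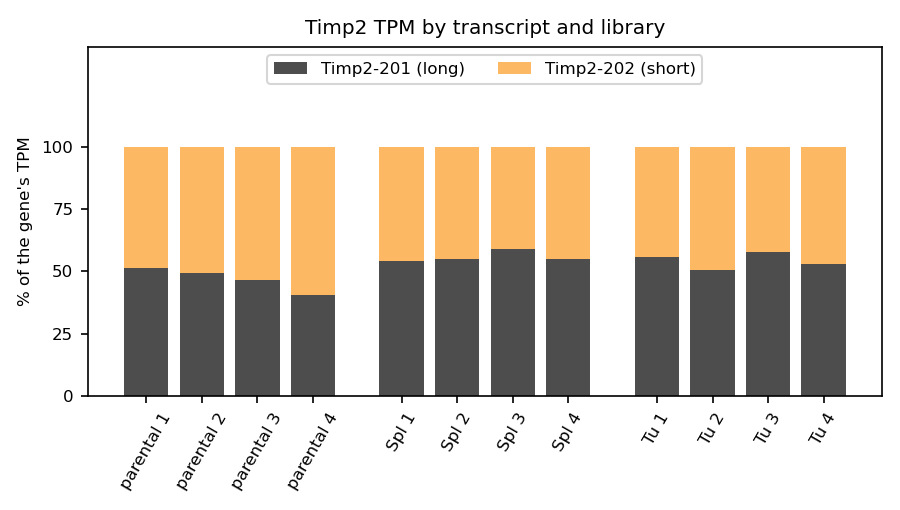
Percent of *Timp2* TPM assigned to the long (3709 bases) and the short (718 bases) protein-coding transcript in each of the 12 libraries. The short transcript took 48.7 to 59.6% in parental, 41.2 to 46.1% in Spl-Gr1+CD11b+-primed and 42.2 to 49.4% in Tu-Gr1+CD11b+-primed 4T1.

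The other genes with several transcripts showed shares that overlapped between groups. Mmp9-201 held 72.0% ± 5.3, 70.0% ± 5.7 and 71.7% ± 2.8 (SD, n = 4) of *Mmp9* TPM in Tu-Gr1+CD11b+-primed, Spl-Gr1+CD11b+-primed and parental 4T1, with most of the rest in Mmp9-203, a short coding model of 416 bases. Mmp14-201 held 78.1% ± 5.0, 81.3% ± 2.6 and 79.3% ± 2.4 of *Mmp14*, with most of the rest in the retained-intron transcript Mmp14-207. Timp1-201 held 71.8% ± 4.2, 72.6% ± 8.6 and 68.7% ± 3.9 of *Timp1*. *Mmp13* and *Mmp3* each had 1 transcript. *Mmp15* had all of its TPM in Mmp15-201 in the Spl-Gr1+CD11b+-primed and parental libraries, and 64.3 to 100% in the Tu-Gr1+CD11b+-primed ones. *Timp3* (ENSMUSG00000020044, chromosome 10, 86300372 to 86349506), an inhibitor that binds to the matrix, lies within *Syn3*, which held 7 to 27 reads per library on the opposite strand.

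Counted over the 9 genes, the calls for Tu-Gr1+CD11b+-primed over parental 4T1 were 5 higher and 1 lower, of 7 tested, where edgeR called 31.2% of all tested genes higher and 28.0% lower, 59.2% in all. Their median log2 difference was 0.17, beside 0.02 over all tested genes. In 4 of the 7 all Tu-Gr1+CD11b+-primed libraries were above all parental ones (28.6% of all genes) and in 1 below (26.9%). Spl-Gr1+CD11b+-primed against parental gave 1 higher and 2 lower, against 25.7% and 22.5% of all genes, with a median of 0.04 beside 0.02. In 2 of the 7 all of its libraries were above parental (21.3% of all genes) and in 1 below (18.3%). With so many genes called in these cells, the counts against parental are no result about the family itself.

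The direct comparison of the primed groups had a lower background. Of the 7 genes, 2 passed as higher in Tu-Gr1+CD11b+-primed than in Spl-Gr1+CD11b+-primed 4T1 and 0 lower by edgeR (4 and 1 at an unadjusted p under 0.05), where 4.66% of all tested genes were called higher and 2.97% lower, 7.63% in all. DESeq2 called 4 higher and 0 lower, limma-voom 2 and 0. Over all tested genes DESeq2 called 1313 in either direction and limma-voom 976, beside 958 by edgeR. The median log2 difference was 0.14, beside −0.01 over all tested genes. In 4 of the 7, *Mmp13*, *Mmp3*, *Mmp14* and *Timp2*, every Tu-Gr1+CD11b+-primed library was above every Spl-Gr1+CD11b+-primed one, against 8.51% of all genes. As the 9 genes were chosen with earlier results of these data known, these counts are no result about the family either.

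**Figure D3:**
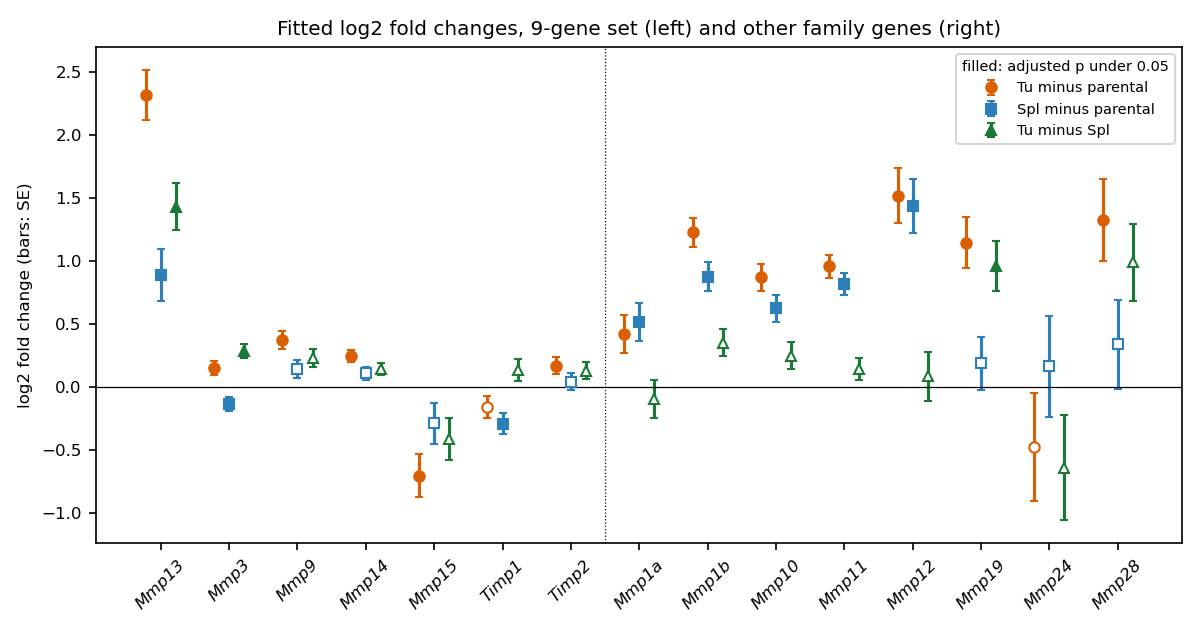
Fitted log2 fold changes with SE (edgeR, log2 axis) for the 7 tested genes of the 9 (left of the dotted line) and 8 other tested Mmp genes (right), in the 3 comparisons; filled symbols have an adjusted p under 0.05. *Mmp13* has the largest change for Tu-Gr1+CD11b+-primed against parental (2.32) and against Spl-Gr1+CD11b+-primed (1.43), *Mmp12* (1.44) lies above it (0.89) for Spl-Gr1+CD11b+-primed against parental, and *Mmp15* (−0.71) is the only filled symbol below 0 for Tu-Gr1+CD11b+-primed against parental.

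The order of the levels was taken from TPM, in which the reads of a transcript are divided by its length and every library is scaled to the same sum. *Mmp3* led with a median of 942 TPM over the 12 libraries (665 to 1218), above 98.7% of the tested genes. *Timp2* followed at 194 (136 to 234), *Mmp14* at 131 (75.4 to 156), *Timp1* at 102 (90.5 to 129) and *Mmp9* at 82.7 (51.2 to 110). *Mmp13* was far lower at 6.80 (1.17 to 19.6) and *Mmp15* at 0.516 TPM (0.397 to 0.780). The ranges of *Mmp14*, *Timp1* and *Mmp9* overlapped over all libraries, as did those of *Timp2* and *Mmp14*, but within each of the 12 libraries *Timp2* was above *Mmp14*. TPM ran higher in the primed groups over all tested genes, by a median log2 of 0.47 in Tu-Gr1+CD11b+-primed and 0.40 in Spl-Gr1+CD11b+-primed 4T1 over parental, and for this reason TPM was used to compare genes within a library and CPM to compare groups.

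Within each library *Mmp3* supplied 79.1 to 84.3% of the summed TPM of the 6 MMP genes, and *Timp2* supplied 58.7 to 66.8% of that of the 3 TIMP genes. The summed MMP level divided by the summed TIMP level was 4.35 ± 0.152 (SD, n = 4) for Tu-Gr1+CD11b+-primed, 3.97 ± 0.10 in Spl-Gr1+CD11b+-primed and 3.69 ± 0.159 in parental 4T1. Its ranges were 4.18 to 4.51, 3.83 to 4.07 and 3.51 to 3.83, so that in TPM the Tu-Gr1+CD11b+-primed libraries were above all others. *Mmp14* over *Timp2* was 0.692 ± 0.0344, 0.679 ± 0.0177 and 0.582 ± 0.0247 in the same order, with both primed groups above parental in TPM. *Mmp9* over *Timp1* was 0.856 ± 0.0851, 0.837 ± 0.181 and 0.597 ± 0.0444. The ratios are descriptions of RNA in TPM, with no test, and were not taken from CPM. The TPM of *Timp2* depends on its division between 2 transcripts. The short transcript held 53.1% of it in parental, 45.8% in Tu-Gr1+CD11b+-primed and 44.4% in Spl-Gr1+CD11b+-primed 4T1. Its part in the ratios was not tested, so a separation of the groups is given for TPM alone.

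**Figure D4:**
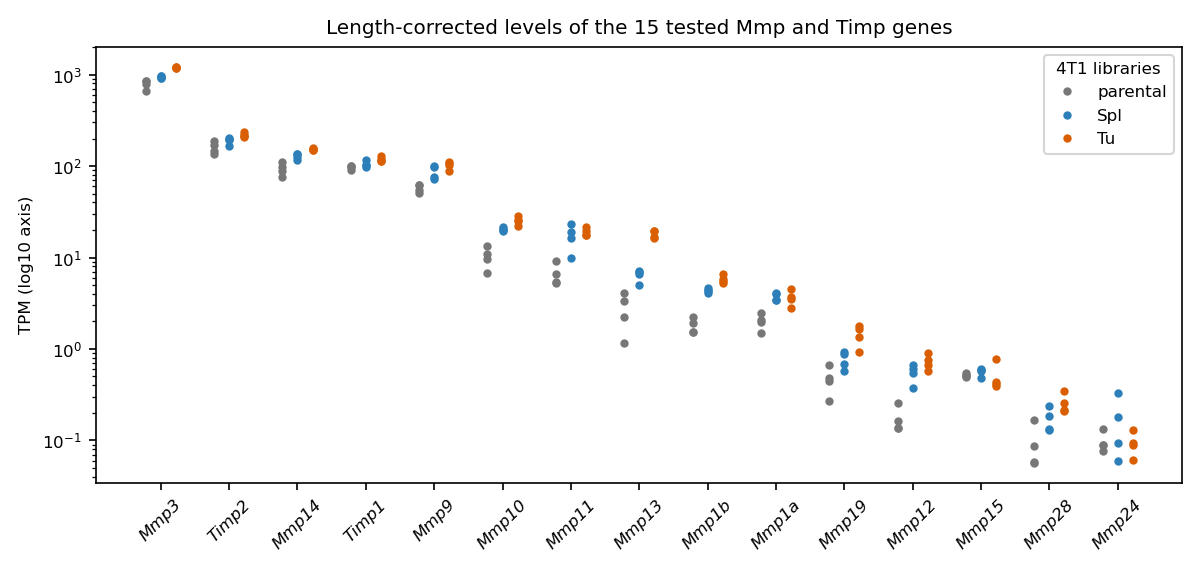
TPM on a log10 axis of the 15 tested Mmp and Timp genes, ordered by the median over all 12 libraries, with 1 point per library. *Mmp3* stands at 665 TPM or more in every library, the next 4 genes lie between 51.2 and 234 TPM, and *Mmp13* spans 1.17 to 19.6 TPM.

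Of the remaining 18 Mmp and Timp genes of the mouse, 8 could be tested. In Tu-Gr1+CD11b+-primed against parental 4T1, 7 of the 8 were higher and 0 lower by edgeR, where 31.2% and 28.0% of all tested genes were (median log2 1.05, beside 0.02 over all genes), with 0 lower also by DESeq2, by limma-voom and at an unadjusted p under 0.05. Against parental, 5 were higher in Spl-Gr1+CD11b+-primed 4T1 and 0 lower (median 0.57), where 25.7% and 22.5% of all genes were, again with 0 lower by each of these measures. With protein-coding transcripts only, the number called was 3. Between the primed groups edgeR and DESeq2 called 1 of the 8, *Mmp19*, higher (median of the 8 genes 0.19, beside −0.01), with 4 higher at an unadjusted p under 0.05. Limma-voom also called *Mmp1b* (0.35, adjusted p = 0.042). The neutrophil collagenase gene *Mmp8* had 0 reads in all 12 libraries, as did *Mmp7*, *Mmp16*, *Mmp20* and *Mmp21*, and *Timp4* had at most 1.

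Several of these changed more than any of the 9 genes did apart from *Mmp13*. *Mmp12*, macrophage elastase, rose by 1.52 ± 0.22 (SE, log2, edgeR adjusted p = 4.9e-05) in Tu-Gr1+CD11b+-primed and by 1.44 ± 0.22 (adjusted p = 0.00015) for Spl-Gr1+CD11b+-primed 4T1, from a parental mean of 0.622 CPM. *Mmp1b*, an interstitial collagenase, rose by 1.22 ± 0.12 and 0.87 ± 0.12 from 2.17 CPM. *Mmp11*, a stromelysin made in breast tumors, rose by 0.96 ± 0.09 and 0.82 ± 0.09 from 9.84 CPM, and *Mmp10*, the stromelysin next of kin to *Mmp3*, by 0.87 ± 0.11 and 0.62 ± 0.11 from 14.9 CPM. All 8 of these differences held in each alternative in which the gene was tested. For *Mmp12* these were 20 of the 21, as it was not tested with protein-coding transcripts only.

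*Mmp19*, which digests basement membrane proteins, was at 3.16, 3.18, 3.46 and 2.15 CPM in Tu-Gr1+CD11b+-primed 4T1, at 1.22, 1.78, 1.45 and 1.70 CPM in Spl-Gr1+CD11b+-primed and 1.42, 1.52, 1.47 and 0.999 CPM in parental 4T1. Like *Mmp13*, it was higher in every Tu-Gr1+CD11b+-primed library than in any other, but the spleen-primed and parental libraries overlapped. It exceeded parental by 1.14 ± 0.20 (edgeR, adjusted p = 0.00028) and Spl-Gr1+CD11b+-primed by 0.96 ± 0.20 (adjusted p = 0.0083), and Spl-Gr1+CD11b+-primed minus parental was 0.18 ± 0.21 (adjusted p = 0.49, 95% interval −0.23 to 0.60). *Mmp28*, epilysin, was higher in Tu-Gr1+CD11b+-primed than in parental 4T1 by 1.32 ± 0.33 (adjusted p = 0.0031) on 3 to 19 reads per library, a call lost with transcript length offsets (1.04, DESeq2 adjusted p = 0.076). *Mmp1a*, which shares 14.5% of its 31-base words with *Mmp1b*, was higher by 0.42 ± 0.15 (adjusted p = 0.030) and 0.52 ± 0.15 (adjusted p = 0.012), and neither call held with protein-coding transcripts alone (adjusted p = 0.48 and 0.85). The first was also lost without Tu-Gr1+CD11b+-primed replicate 1 or 4 or parental replicate 2, 3 or 4 (adjusted p up to 0.11). *Mmp24*, on 5 to 21 reads, was not called in any comparison.

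*Mmp13*, *Mmp3* and 4 of these genes are neighbours. Chromosome 9 carries 10 Mmp genes within 427 kb (GRCm38, 7272514 to 7699585), of which *Mmp13*, *Mmp12*, *Mmp1b*, *Mmp3*, *Mmp1a* and *Mmp10* follow each other at one end and were tested. *Mmp12* (plus strand, ending at 7369499) and *Mmp1b* (minus strand, from 7368239) overlap. Whether reads of one were counted for the other was not tested. *Mmp8*, *Mmp27*, *Mmp20* and *Mmp7* follow them and had at most 1 read in any library, so that reads came from the first 6 genes of the row. All 6 were called higher after tumor-derived priming than in parental 4T1, where 31.2% of all genes were. The calls of *Mmp3* and *Mmp1a* held in just 13 and 14 of the 21 alternatives, and *Mmp12* was tested in 20 of them. In Spl-Gr1+CD11b+-primed 4T1, 5 were called higher and *Mmp3* lower, the weak call described above.

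Proteins known to regulate MMPs were read from a list of 15 genes, 10 of them tested. Against parental, 3 rose and 1 fell in Tu-Gr1+CD11b+-primed (median log2 0.17), where 31.2% and 28.0% of all tested genes did, and 3 rose and 2 fell in Spl-Gr1+CD11b+-primed (median −0.02), where 25.7% and 22.5% did, so that these shares were near the background. The 5 calls of the latter comparison were 3 without parental replicate 4. By edgeR 1 rose in Tu-Gr1+CD11b+-primed against Spl-Gr1+CD11b+-primed 4T1 (median 0.09). That gene was *Lcn2*, whose product lipocalin 2 binds MMP9 and protects it from degradation. *Lcn2* was at 994 ± 118 CPM (SD, n = 4) for Tu-Gr1+CD11b+-primed, 467 ± 38.1 in Spl-Gr1+CD11b+-primed and 608 ± 114 in parental 4T1. It was higher than Spl-Gr1+CD11b+-primed by 1.09 ± 0.12 (SE, log2, edgeR adjusted p = 6.8e-05) and than parental by 0.71 ± 0.12 (adjusted p = 0.00017). In Spl-Gr1+CD11b+-primed it was lower than parental by −0.38 ± 0.12 (adjusted p = 0.016, and 0.055 without parental replicate 4). *Lcn2* therefore lay on opposite sides of parental in the 2 primed groups, as *Mmp3* did, with a larger difference.

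*Reck*, a membrane-anchored inhibitor of MMPs, rose from 1.47 ± 0.474 CPM (SD, n = 4) in parental to 4.75 ± 0.589 in Tu-Gr1+CD11b+-primed and 4.40 ± 0.518 in Spl-Gr1+CD11b+-primed 4T1, by 1.69 ± 0.19 and 1.59 ± 0.19 (SE, log2, edgeR adjusted p = 7.1e-06 and 2.6e-05). The primed groups did not separate in *Reck* (0.11 ± 0.17, adjusted p = 0.76, 95% interval −0.23 to 0.44). *Hpx*, hemopexin, was called higher in both primed groups on 11 to 23 reads per primed library and 0 to 4 per parental one. *Cd151*, a tetraspanin of the cell surface, was lower in both, by −0.24 ± 0.07 and −0.22 ± 0.07 (adjusted p = 0.0062 and 0.015). *Thbs1*, thrombospondin, was higher in Spl-Gr1+CD11b+-primed 4T1 by 0.36 ± 0.13 (adjusted p = 0.036), a call lost without any of 5 single libraries.

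Other matrix proteases and their inhibitors (38 genes, 28 tested) gave 14 higher and 4 lower for Tu-Gr1+CD11b+-primed against parental (median log2 0.27, with 31.2% and 28.0% of all genes called), 10 higher and 5 lower in Spl-Gr1+CD11b+-primed against parental (0.10, with 25.7% and 22.5%), and 4 higher and 1 lower between the primed groups (0.09, with 4.66% and 2.97%). The 5 calls between the primed groups were 3 without Tu-Gr1+CD11b+-primed replicate 1, 2 or 3 or Spl-Gr1+CD11b+-primed replicate 1 or 2, and 8 with only the 8 libraries compared. The 5 lower in Spl-Gr1+CD11b+-primed were 2 without its replicate 1, 2 or 4 or parental replicate 1 or 3. *Adamts4*, an aggrecanase, had the smallest p of the list between the primed groups. It was at 34.9 ± 0.889 CPM (SD, n = 4) for Tu-Gr1+CD11b+-primed, 21.4 ± 2.35 in Spl-Gr1+CD11b+-primed and 15.7 ± 1.37 in parental 4T1, and no 2 groups overlapped. *Serpine2*, a serine protease inhibitor that blocks thrombin and plasminogen activators, followed the same order at 953 ± 69.9, 700 ± 31.4 and 616 ± 47.4 CPM. Tu-Gr1+CD11b+-primed exceeded Spl-Gr1+CD11b+-primed by 0.71 ± 0.08 (SE, log2, edgeR adjusted p = 7.8e-05) for *Adamts4*, by 0.44 ± 0.07 (adjusted p = 0.00087) for *Serpine2* and by 0.80 ± 0.16 (adjusted p = 0.0060) for *Adamts9*, another aggrecanase.

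*Cst6*, an inhibitor of lysosomal cysteine proteases, ran the other way, at 2.03 ± 0.381 CPM (SD, n = 4) for Tu-Gr1+CD11b+-primed, 3.20 ± 0.336 in Spl-Gr1+CD11b+-primed and 4.95 ± 1.11 in parental 4T1. It fell by −1.29 ± 0.18 (SE, log2, edgeR adjusted p = 3.8e-05) and −0.63 ± 0.17 (adjusted p = 0.0079) from parental, while the difference between the primed groups (−0.66 ± 0.18, adjusted p = 0.040) was lost without any of 8 single libraries and with the replicate number as a block (adjusted p = 0.069). Rises shared by both primed groups were seen in *Adam8*, a cell-surface sheddase (1.05 and 0.69), and *Hpse*, heparanase (1.02 and 0.78). *Bmp1*, which trims procollagens, rose by 0.49 and 0.51. *Ctsd*, the aspartic protease cathepsin D, fell by −0.31 and −0.35, with adjusted p of 0.00013 and 9.4e-05. *Adam15* was lower in Tu-Gr1+CD11b+-primed 4T1 (−0.26 ± 0.05, adjusted p = 0.00045), and *Spint1*, a protease inhibitor, in Spl-Gr1+CD11b+-primed 4T1 (−0.13 ± 0.05, adjusted p = 0.028, lost without any of 5 single libraries and at −0.043 with an adjusted p of 0.63 with transcript length offsets).

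The matrix proteins that these enzymes cut (30 genes, 22 tested) moved in both directions, 7 higher and 5 lower for Tu-Gr1+CD11b+-primed and 5 higher and 6 lower in Spl-Gr1+CD11b+-primed against parental, with a median log2 of 0.05 in each. Over all genes 31.2% and 28.0% were called in the first comparison and 25.7% and 22.5% in the second, so that the list was near the background. The 5 higher in Spl-Gr1+CD11b+-primed were 3 without its replicate 2 or 4 or parental replicate 4. *Col7a1*, the collagen of anchoring fibrils, rose from 26.9 ± 0.896 CPM (SD, n = 4) in parental to 75.3 ± 5.91 and 68.6 ± 11.9. *Spp1*, osteopontin, rose from 2317 ± 130 to 3509 ± 41.3 and 3209 ± 94.0 CPM. The type IV collagen genes *Col4a2* and *Col4a1* and *Hspg2* (perlecan) fell by −0.59, −0.29 and −0.75 in Tu-Gr1+CD11b+-primed and by −0.47, −0.26 and −0.78 in Spl-Gr1+CD11b+-primed 4T1 (edgeR, adjusted p at most 0.0024), and *Fbln1*, fibulin, by −0.27 in each. Other basement membrane genes of the list, named after their values were seen, were called higher in both, *Nid1* (nidogen) by 0.97 and 0.53 and *Agrn* (agrin) by 0.74 and 0.37. *Tnc*, the glycoprotein tenascin C, was the 1 gene of the list that edgeR called between the primed groups (DESeq2 called 3), higher by 0.38 ± 0.09 in Tu-Gr1+CD11b+-primed (adjusted p = 0.018, or 0.069 when replicate 3 of that group was left out).

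**Figure D5:**
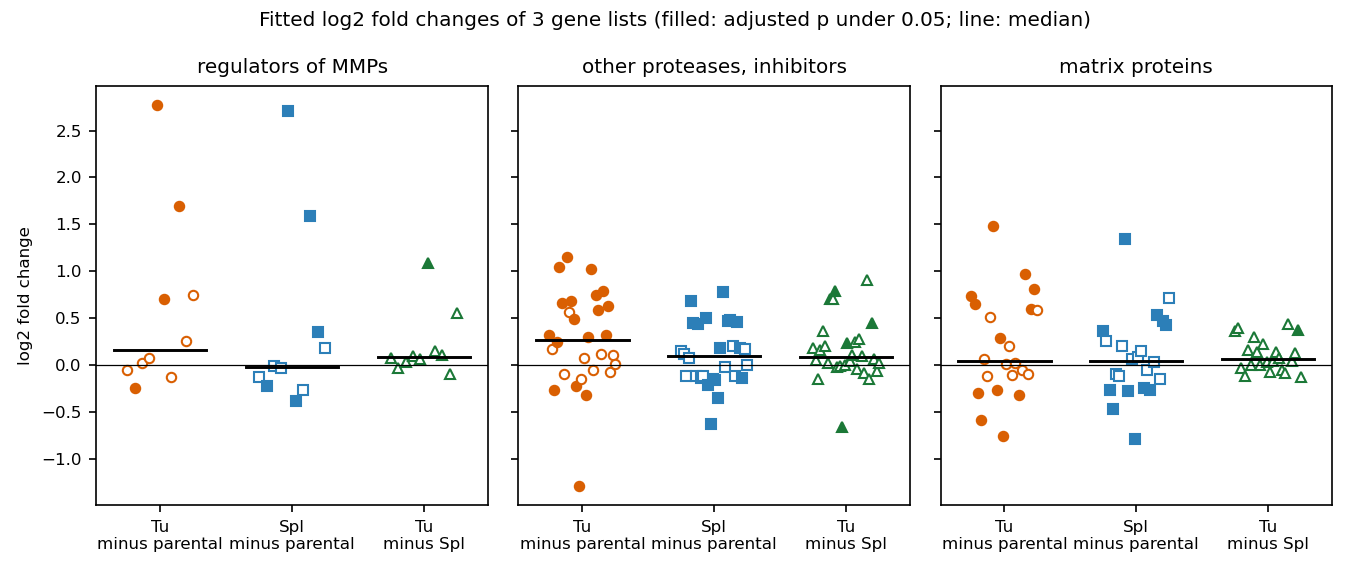
Fitted log2 fold changes (edgeR) of the tested genes of 3 lists in the 3 comparisons, 1 symbol per gene, filled where the adjusted p is under 0.05, with the list's median as a line. The medians lie between −0.02 and 0.27, and few symbols are filled between the primed groups (1 of 10, 5 of 28 and 1 of 22).

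The genes whose pattern over the 12 libraries was most like that of each member were found by the root mean square difference of mean-centred log2 CPM. For *Mmp13* they were *Arid3a* (0.290) and *C1ra* (0.319). The same measure gave *Slc39a1* (0.0578) and *Tagln2* (0.0667) for *Mmp3*, *Slc2a1* (0.0728), the second nearest, for *Mmp9*, and *Zfp36l1* (0.0310) and *Gnb4* (0.0410) for *Mmp14*. It gave *Ccdc92* (0.0966) and *Lrfn4* (0.101) for *Mmp15*, *Tm4sf1* (0.0545) and *Atp6v1e1* (0.0672) for *Timp1*, and *Phf14* (0.0343) and *Tram1* (0.0430) for *Timp2*. Genes that vary little lie near many others by this measure, and the distance for *Mmp13* is the largest of the 7.

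Myeloid cells make MMPs, so the libraries were read for markers of other cells. All 10 epithelial markers were detected, with summed levels of 1932 to 2369 CPM in Tu-Gr1+CD11b+-primed, 2424 to 2618 in Spl-Gr1+CD11b+-primed and 2700 to 4022 in parental 4T1. Of 18 granulocyte markers 8 were at 0 in every library, among them *Elane*, *Mpo* and *Camp*, and 4 were tested. Their summed level was 225 to 248, 238 to 247 and 173 to 205 CPM in the same order, of which *Itgb2*, an integrin chain of leukocytes, made up 96.8%. Of 10 macrophage markers 4 were at 0 in every library (*Adgre1*, *C1qa*, *C1qb* and *C1qc*), and the sum was 24.2 to 26.3, 18.9 to 21.6 and 18.3 to 22.5 CPM. Of 10 fibroblast markers 1, *Pdgfra*, was tested and made up 99.6% of a sum of 76.3 to 97.9, 42.5 to 66.9 and 42.9 to 55.8 CPM. *Pdgfra* and the macrophage sum were thus highest in Tu-Gr1+CD11b+-primed 4T1, as *Mmp13* was. Of the 4 tested granulocyte markers, edgeR called *Ltf* and *S100a8* higher there than in each of the other groups. *Itgb2* was at means of 230, 236 and 185 CPM in the same order, and *Cxcr2* was not called in any comparison. The part of these markers in the differences was not tested. In bulk RNA a change in the share of cells that express a gene and a change in RNA per cell cannot be told apart.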

How the data were processed

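RNA of 12 libraries (TruSeq Stranded RNA) had been trimmed with Trimmomatic 0.39 and quantified with Salmon 1.4.0 on GRCm38, per the submitters' processing notes. Whether counting used strand, and the transcript annotation, are not given in the sources used here. The deposited Salmon tables hold expected counts and TPM per transcript for each library. The deposited table of the whole series holds a normalized signal per gene that served for no test. Transcripts were assigned to genes by GENCODE M21 (0.368% to 0.419% of reads in Spl-Gr1+CD11b+-primed, 0.393% to 0.413% in Tu-Gr1+CD11b+-primed and 0.326% to 0.385% in parental libraries fell on transcripts outside it and were left out). The expected counts were summed per gene and rounded. CPM were computed with TMM-scaled library sizes.

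Genes passing edgeR's filterByExpr (12555) entered 1 quasi-likelihood fit of all 12 libraries (edgeR 4.0.16, R 4.3.3) with no covariate, two-sided, with Benjamini-Hochberg adjustment over all tested genes and a threshold of 0.05. The 95% intervals are the estimate ± normal quantile × SE. Alternatives were DESeq2 1.42.0, limma-voom 3.58.1, length offsets, RLE scaling, a minimum of 10 counts in each library, no filter, protein-coding transcripts only, a replicate block, the 8 libraries compared and each library left out. The tests were checked on simulated counts.

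The 9 genes, the other gene lists and the rule for named genes were chosen with earlier results of these data known. The rule names all 9 genes, the other tested Mmp and Timp genes, the 3 called genes with the smallest p per direction in each list and comparison, overlapping genes and the 2 most similar genes of each called member. *Cep295nl* was named after its values were seen. The result of 1 gene that the rule names is not reported here. Promoter sequences are from RefSeq (GRCm38.p6).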

Additional observations from a re-analysis of the deposited data

Results flagged for a closer look

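*Mmp13* in Spl-Gr1+CD11b+-primed replicate 3 (9.84 CPM) lay far below the other 3 libraries of its group (12.5 to 12.7 CPM), with a gap of 0.927 of the group's range, beyond the 95% limit of Dixon's test for 4 samples. Of 45 groups of values examined this was the 1 so far apart, and chance alone gives about 1 in 20. The same library stood apart from its group over all genes (chi-square per degree of freedom 31.8 to 39.6).

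The effect of priming differed between the 2 sources of Gr1+CD11b+ cells in 3 Mmp genes. The difference of the 2 effects, which equals Tu-Gr1+CD11b+-primed minus Spl-Gr1+CD11b+-primed in the fit, was 1.43 (SE 0.19, edgeR adjusted p = 0.00027) for *Mmp13*, 0.29 (SE 0.05, adjusted p = 0.0048) for *Mmp3* and 0.96 (SE 0.20, adjusted p = 0.0083) for *Mmp19* on the log2 scale. Each was higher in 4 of 4 Tu-Gr1+CD11b+-primed libraries than in any Spl-Gr1+CD11b+-primed one.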

How the results depend on the processing

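Of the 7 tested genes, *Mmp13* (3 comparisons), *Mmp9*, *Mmp14* and *Mmp15* (Tu-Gr1+CD11b+-primed against parental), *Timp1* (Spl-Gr1+CD11b+-primed against parental) and *Mmp3* (between the primed groups) were called in all 21 alternatives. The number of the 7 genes called was 6, 3 and 2 in the 3 comparisons and ran from 4 to 7, 2 to 4 and 2 to 3 when 1 library was left out. DESeq2 called 4 in place of 2 between the primed groups, adding *Mmp9* and *Mmp14*, and the cause was not tested. Of all genes it called 1313 in place of 958. Without Tu-Gr1+CD11b+-primed replicate 1, 2 or 3 the genes called between the primed groups fell from 958 to 564, 550 and 525. Directions reversed for *Timp2* against parental with length offsets, to −0.014 (adjusted p = 0.87) for Tu-Gr1+CD11b+-primed and to −0.17 (adjusted p = 0.015) for Spl-Gr1+CD11b+-primed, and the latter difference ran from −0.018 to 0.089 with 1 library left out. They also reversed in differences that were not called. For Spl-Gr1+CD11b+-primed against parental, *Mmp24* was at −0.034 with limma-voom and −0.24 to 0.43 with 1 library left out. Between the primed groups *Mmp1a* was at 0.61 with protein-coding transcripts only and −0.22 to 0.017 with 1 library left out, *Mmp12* at −0.064 to 0.17, and *Syn3* at 0.035 with length offsets, 0.040 with protein-coding transcripts only and −0.25 to 0.18. *Mmp24*, *Mmp28*, *Hpx* and *Syn3*, on at most 27 reads per library, are limited by depth, as are *Mmp2* and *Timp3*.

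The replicate numbers did not pair the libraries. Deviations from the group means correlated at −0.16 to 0.15 between libraries with the same number, 2 of 12 such pairs were over 0.1, and 3 of 12 libraries correlated best with their own number. With the number as a replicate block, 6, 2 and 2 of the 7 genes were called in the 3 comparisons, beside 6, 3 and 2 without it, and 7194, 5779 and 744 of all genes beside 7434, 6053 and 958. The call lost was that of *Mmp3* in Spl-Gr1+CD11b+-primed against parental (−0.14, adjusted p = 0.065).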
